A study of Homo sapiens with 6 samples.

Results

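Read here were 10 genes of the E2F family of transcription factors and their DP partners: E2F1 to E2F8 (8 genes), TFDP1 and TFDP2. TFDP3, a further DP gene, had 0 counts in every library and was left out. The 10 genes were read from the deposited counts by their Ensembl identifiers. They were 10 of the 27745 genes listed, and all 10 were among the 15372 genes with enough counts to be tested. The genes were measured by RNA-seq in MDA-MB-231, an established triple-negative breast cancer cell line, after infection with a lentivirus carrying an shRNA. The control group received sh-TRC, the control vector (2 libraries), and MIR100HG, a long noncoding RNA, was knocked down with sh-MIR100HG-1 (2 libraries) or sh-MIR100HG-2 (2 libraries). All 6 libraries therefore came from lentivirus-infected cells of 1 line, the labels gave no time after infection (the study's methods state 1 collection time, some days after infection, for its shRNA-infected cells without naming the RNA-seq), and sh-TRC was shared by both knockdown comparisons. The study called the 2 libraries of each MIR100HG shRNA biological replicates, and for the sh-TRC libraries no source used here says how they were made separate. The p-values below therefore measure the spread between libraries of 1 cell line, which may be technical in part.

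E2F proteins bind DNA at the promoters of genes that drive entry into S phase. E2F1 to E2F6 bind as heterodimers with a DP protein. Pocket proteins of the RB family hold the activators among them in check until cyclin-dependent kinases phosphorylate the pocket protein. E2F1, E2F2 and E2F3 are known as activators, E2F4 and E2F5 as repressors that work with p107 and p130, E2F6 as a repressor that acts without pocket proteins, and E2F7 and E2F8 as atypical repressors that bind DNA without DP.

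Both hairpins were directed against MIR100HG, and their target sequences are shown since every comparison rests on them. The sense strands, 21 bases each in lower case, were matched to GRCh37.
sh-MIR100HG-1: ttcctctgtttgtacttaaat
sh-MIR100HG-2: gagagtgacctacagaataaa
The first target lay at chr11:121962132-121962152 and the second at chr11:121961961-121961981, both on the minus strand and in exons of MIR100HG. Each matched transcripts of 1 gene in the annotation, MIR100HG, so neither had an identical 21-base match in an annotated transcript of an E2F or DP gene. An exon holding the first target was found in 32 of 107 annotated MIR100HG transcripts, and one holding the second in 30 of 107.

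E2F genes are known to carry E2F sites in their own promoters, so the RefSeq promoters of the members (GRCh38.p14) were searched for such sites. The windows ran from 250 bases before to 50 bases after each transcription start site, and 11 windows were given for 8 of the 10 members. The words TTTCCCGC, TTTCGCGC, TTTGCCGC and TTTGGCGC were searched on both strands, and no word found overlapped another. At least 1 of them was found in 4 of the 11 windows, those of E2F1, E2F2, TFDP1 and 1 of the windows of E2F3. The share was 3.31% over all 35116 windows and 4.59% over the windows of genes tested. The stretches around the words are given below, 5′ to 3′ on the strand of the gene, with the words in capitals.
E2F1: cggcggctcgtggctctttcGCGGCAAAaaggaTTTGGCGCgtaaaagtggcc
E2F2: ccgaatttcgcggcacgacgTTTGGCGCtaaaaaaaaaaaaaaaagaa
E2F3: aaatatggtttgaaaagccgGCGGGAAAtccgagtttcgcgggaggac
TFDP1: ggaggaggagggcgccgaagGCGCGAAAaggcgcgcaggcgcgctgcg
The E2F1 stretch, chr20:33686386-33686438 on the minus strand, held a pair of words that began 33 and 20 bases before the start site. The single words began 42 bases before the start site in E2F2 (chr1:23531248-23531295, minus strand), 53 bases in E2F3 (chr6:20401806-20401853, plus strand) and 120 bases in TFDP1 (chr13:113584613-113584660, plus strand). None of these words was found in the windows of E2F4, E2F6, E2F7 or TFDP2, which says only that these letters were absent from those windows. The cell cycle homology words TTTGAA and TTCGAA, also searched on both strands, were found in 3 of the 11 windows, of E2F3 and TFDP2. The share was 16.4% over all windows and 12.3% over the windows of genes tested.

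The libraries held 43804736 to 64588388 counts assigned to genes. VIM (1610 to 2100 counts per 1000000 counts, CPM) and CD44 (538 to 957 CPM) were high and PGR (0 to 0.0236 CPM) was nearly absent, while ERBB2, listed as a low marker of a triple-negative line, was at 71.6 to 116 CPM. The leukocyte marker PTPRC stayed between 0.12 and 0.689 CPM. COL1A1, a fibroblast marker, ranged from 17.2 to 78 CPM and was lowest in the controls. One pair of libraries, sh-TRC replicate 2 and sh-MIR100HG-1 replicate 1, stood apart. There were 92 genes with at most 5 counts in each of the other 4 libraries and at least 20 counts in both of these, with medians of 87.5 and 116 counts, whereas any other pair of libraries had at most 1 such gene. The 92 genes held 0.0208% of the counts of sh-TRC replicate 2 and 0.0217% of those of sh-MIR100HG-1 replicate 1. These shares say nothing of genes that the other libraries also held. CDKN2A, which encodes the kinase inhibitor p16 upstream of RB and is known to be deleted in this line, had 71 and 89 counts in this pair and 0, 0, 2 and 0 in the others. ESR1 had 140 and 185 counts in the pair and 6 to 25 in the others. Results on the members are therefore given with and without these libraries. One is a control and the other a knockdown library, and the part of this pattern in the results on the members was not tested.

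MIR100HG itself was measured at 41.9 and 58.5 CPM in the controls, at 15.2 and 13.2 CPM with sh-MIR100HG-1 and at 16.6 and 10.4 CPM with sh-MIR100HG-2. All 4 knockdown libraries lay below both controls. The log2 fold change was −1.86 (SE 0.25), 0.275 of the control level, and ranked second of all genes by p, yet with 2 libraries a group it did not pass the adjustment over all genes in edgeR's quasi-likelihood test (adjusted p = 0.381). It passed in DESeq2 (adjusted p = 5.09e-07) and in edgeR's likelihood ratio test (adjusted p = 1.21e-06).

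No E2F or DP gene passed the adjusted threshold of 0.05 in any comparison. The lowest adjusted p-value of a member was 0.545, for E2F4 with sh-MIR100HG-2 (edgeR). At the unadjusted threshold (edgeR), E2F2 was lower and E2F7 higher in the pooled knockdown, and E2F4 was higher with sh-MIR100HG-2. The exact two-sided permutation test of all knockdown libraries against the controls gave p = 0.2 for E2F2 and for E2F7. The smallest p that this test allows is 0.0667. Over all genes, 0% passed at the adjusted threshold in the pooled knockdown, with sh-MIR100HG-1, with sh-MIR100HG-2 and between the shRNAs (0% in each), where the lowest adjusted p-values were 0.381, 0.714, 0.322 and 0.509 (edgeR quasi-likelihood test). DESeq2 called 130, 66, 167 and 103 genes in these comparisons, of which 0 were members. At an unadjusted p under 0.05, 2 of 10 members differed in the pooled knockdown (E2F2 and E2F7), against 7.68% of all genes (1180 genes). With sh-MIR100HG-1 it was 1 member (E2F7) against 6.87% of genes, with sh-MIR100HG-2 1 member (E2F4) against 8.86%, and between the shRNAs 0 members against 9.45%. Without the pair of libraries that stood apart, the counts were 0 of 10 members in the pooled knockdown (4.73% of genes), 1 with sh-MIR100HG-1 (E2F7, 2.88%), 0 with sh-MIR100HG-2 (8.09%) and 0 between the shRNAs (6.91%).

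By rank alone, 4 of 10 members had all 4 knockdown libraries on 1 side of both controls, against 17.5% of all genes, counted in either direction. In each of these members the knockdown libraries were the higher ones: E2F3, E2F4, E2F6 and TFDP2. The share of all genes separated in that direction alone was not taken. With RLE scaling the groups of E2F4 overlapped, which left 3 members against 17.5% of genes. With sh-MIR100HG-1 the groups did not overlap for 6 members (40.5% of genes), with sh-MIR100HG-2 for 7 (38.5%), and between the shRNAs for 2 (43.9%). Without the pair that stood apart, which left 1 control, 7 members did not overlap against 50.6% of genes. The median log2 fold change of the 10 members was 0.14 in the pooled knockdown, beside −0.04 over all genes tested. Without the pair, the pooled log2 fold change was −0.10 for E2F1, 0.50 for E2F4, 0.39 for E2F5, 0.20 for E2F6, −0.27 for E2F8, −0.16 for TFDP1 and 0.15 for TFDP2, and the other members are given below. In bulk RNA a lower level in every cell and fewer cells of a kind cannot be told apart.

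**Figure D1:**
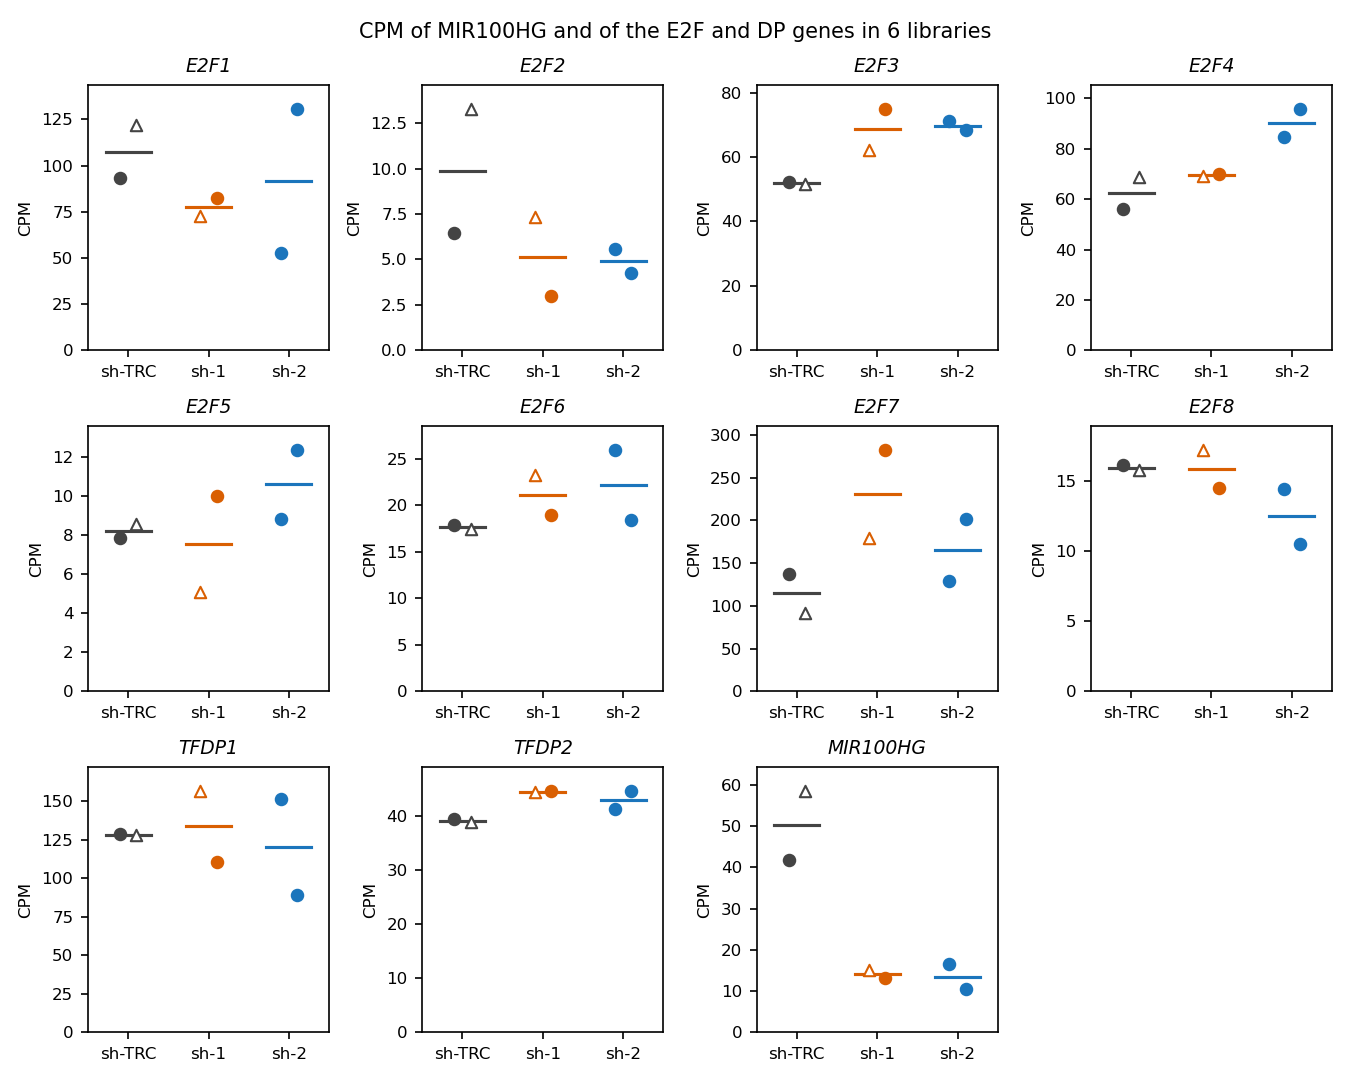
CPM (y axis from 0) of each E2F and DP gene and of MIR100HG in the sh-TRC control, sh-MIR100HG-1 (sh-1) and sh-MIR100HG-2 (sh-2) groups. Points are libraries, lines are means of 2, and open triangles are sh-TRC replicate 2 and sh-MIR100HG-1 replicate 1, where E2F2 was highest (13.3 and 7.33 CPM), while E2F3 in all 4 knockdown libraries lay above both controls.

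Among the activators, E2F1 (chr20:32263489-32274210, GRCh37, as for all gene positions from here) was the most variable with sh-MIR100HG-2. It was at 93.0 and 122 CPM in the controls, at 72.9 and 82.3 CPM with sh-MIR100HG-1 and at 52.7 and 131 CPM with sh-MIR100HG-2. Both sh-MIR100HG-1 libraries lay below the controls, while the sh-MIR100HG-2 libraries were the lowest and the highest of all 6. In the pooled knockdown the log2 fold change of E2F1 was −0.35 (SE 0.33, interval −1.10 to 0.40, edgeR adjusted p = 0.843), and it was −0.10 without sh-MIR100HG-2 replicate 1 and −0.76 without sh-MIR100HG-2 replicate 2. Leaving out a control gave −0.53 (without replicate 1) and −0.14 (without replicate 2). The sh-MIR100HG-1 group alone gave −0.47 (SE 0.39), which was −0.26 without control replicate 2. The value of −0.23 (SE 0.39) for sh-MIR100HG-2 became 0.28 without its replicate 1 and −1.04 without its replicate 2.

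E2F2 (chr1:23832922-23857712), whose promoter holds the single word shown above, was the member with the lowest knockdown to control ratio. It was at 6.44 and 13.3 CPM in the controls, at 7.33 and 2.98 CPM with sh-MIR100HG-1 and at 5.58 and 4.28 CPM with sh-MIR100HG-2. Controls averaged 9.86 ± 4.84 CPM (SD, n = 2), sh-MIR100HG-1 libraries 5.16 ± 3.08 CPM and sh-MIR100HG-2 libraries 4.93 ± 0.921 CPM. The groups overlapped, since sh-MIR100HG-1 replicate 1 lay above control replicate 1. For E2F2 the pooled log2 fold change was −0.97 (SE 0.42, 95% interval −1.92 to −0.01), or 0.512 of the control level (edgeR adjusted p = 0.645). E2F2 was the only member whose 2 highest libraries were the pair that stood apart (782 and 487 counts, against 126 to 346 in the others), an order shared by 3.82% of the genes tested. Without that pair the log2 fold change was −0.75 (edgeR adjusted p = 0.997) and the 3 knockdown libraries lay below the remaining control. Leaving out control replicate 2 alone gave −0.36, and leaving out control replicate 1 gave −1.40.

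E2F3 (chr6:20402137-20493946) was higher in every knockdown library. It was at 52.1 and 51.7 CPM in the controls, at 62.1 and 75 CPM with sh-MIR100HG-1 and at 71.1 and 68.4 CPM with sh-MIR100HG-2. The controls differed by 0.01 on the log2 scale, and no knockdown library reached down to them. Its pooled log2 fold change was 0.41 (SE 0.18, interval −0.01 to 0.83), 1.33 times the control level (edgeR adjusted p = 0.66). Each shRNA gave nearly the same value, 0.40 for the first and 0.43 for the second, and the pooled value was 0.47 without the pair that stood apart. The exact two-sided permutation test of 4 against 2 libraries gave p = 0.0667 for E2F3, the smallest that the 15 splits allow. The unadjusted pooled p of E2F3 was 0.0532 in edgeR's quasi-likelihood test, 0.0494 with RLE scaling and 0.0371 in DESeq2. It was 0.0737 in the likelihood ratio test and 0.0967 without the filter.

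Of the repressors, E2F4 (chr16:67226072-67232821), the main partner of p130 in resting cells, was highest with sh-MIR100HG-2. It was at 56.0 and 68.6 CPM in the controls, at 69.2 and 70.0 CPM with sh-MIR100HG-1 and at 84.8 and 95.9 CPM with sh-MIR100HG-2. The sh-MIR100HG-1 libraries lay just above the higher control, and the sh-MIR100HG-2 libraries lay clear of the other 4. The log2 fold change with sh-MIR100HG-2 was 0.54 (SE 0.21, interval 0.05 to 1.03) and 1.45 times the control level (edgeR adjusted p = 0.545). It was 0.39 and 0.68 without control replicates 1 and 2, and 0.62 and 0.44 without sh-MIR100HG-2 replicates 1 and 2. In the pooled knockdown it was 0.35 (SE 0.19, adjusted p = 0.699), and sh-MIR100HG-1 alone gave 0.16 (SE 0.21, adjusted p = 0.881). Without the pair that stood apart, the value for sh-MIR100HG-2 was 0.69 (edgeR adjusted p = 0.677) and no longer passed the unadjusted threshold. The pooled value was 0.21 without control replicate 1, and the sh-MIR100HG-1 value was 0.02 without control replicate 1 and 0.31 without control replicate 2.

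E2F5 (chr8:86089460-86129387), the other repressor of this class, was low and showed no common order of the groups. It was at 7.82 and 8.55 CPM in the controls, at 5.06 and 10.01 CPM with sh-MIR100HG-1 and at 8.84 and 12.4 CPM with sh-MIR100HG-2. The sh-MIR100HG-1 libraries lay on both sides of the controls and both sh-MIR100HG-2 libraries lay above them. The pooled log2 fold change was 0.13 (SE 0.33, interval −0.62 to 0.87, adjusted p = 0.953), and it turned to −0.16 without sh-MIR100HG-1 replicate 2 and to −0.01 without sh-MIR100HG-2 replicate 2. Of its exon length, 16.26% (963 bases) overlapped RBIS on the opposite strand, and reads of the genes cannot be told apart there unless the counting used strand.

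E2F6 (chr2:11584501-11606303), which represses through chromatin complexes, was at 17.8 and 17.4 CPM in the controls. It was at 23.2 and 19.0 CPM with sh-MIR100HG-1 and at 25.97 and 18.4 CPM with sh-MIR100HG-2. All 4 knockdown libraries lay above both controls, and replicate 1 was the higher one with either shRNA. The pooled log2 fold change was 0.30 (SE 0.23, interval −0.23 to 0.83, edgeR adjusted p = 0.806), and it was 0.16 without sh-MIR100HG-2 replicate 1. The exact permutation p was 0.133.

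Of the atypical E2Fs, E2F7 (chr12:77415027-77459360), a repressor of E2F1 and of other S phase genes, was the member with the highest knockdown to control ratio. It was at 138 and 92.1 CPM in the controls, at 180 and 283 CPM with sh-MIR100HG-1 and at 129 and 202 CPM with sh-MIR100HG-2. Both sh-MIR100HG-1 libraries lay above the controls, whereas sh-MIR100HG-2 replicate 1 lay between them. Controls averaged 115 ± 32.2 CPM (SD, n = 2), sh-MIR100HG-1 libraries 231 ± 73.1 CPM and sh-MIR100HG-2 libraries 165 ± 51.4 CPM. The pooled log2 fold change was 0.77 (SE 0.29, interval 0.10 to 1.44) or 1.70 times the control level (edgeR adjusted p = 0.615). The sh-MIR100HG-1 libraries gave 1.01 (SE 0.33, interval 0.25 to 1.76) or 2.01 times the control level (adjusted p = 0.714). That value was 0.64 without sh-MIR100HG-1 replicate 2. The sh-MIR100HG-2 libraries gave 0.53 (SE 0.33, adjusted p = 0.66), which was 0.16 without their replicate 2, 0.81 without their replicate 1, and 0.84 and 0.26 without control replicates 1 and 2. The difference between the shRNAs in E2F7 was −0.48 (SE 0.33, interval −1.23 to 0.27, adjusted p = 0.626). Without the filter on low counts the sh-MIR100HG-1 value of E2F7 had an edgeR adjusted p of 0.0264, the only call of a member under any alternative. That setting called 227 of 21349 genes in this comparison, where the filtered fit called 0. The adjusted p of E2F7 there was 0.707 with RLE scaling, 0.349 by the likelihood ratio test and 0.27 in DESeq2. Without the pair of libraries that stood apart the pooled value was 0.65 (edgeR adjusted p = 0.997) and the sh-MIR100HG-1 value 1.04 (adjusted p = 0.999). Leaving out control replicate 2 gave a pooled value of 0.50 and leaving out control replicate 1 gave 1.09.

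E2F8 (chr11:19245610-19263167), which forms dimers with E2F7, had no knockdown group with a mean above the controls. It was at 16.1 and 15.8 CPM in the controls, at 17.2 and 14.5 CPM with sh-MIR100HG-1 and at 14.4 and 10.5 CPM with sh-MIR100HG-2. Both sh-MIR100HG-2 libraries lay below the other 4. Its log2 fold change was −0.36 (SE 0.27, interval −0.97 to 0.26, edgeR adjusted p = 0.706) with sh-MIR100HG-2 and −0.18 (SE 0.23, adjusted p = 0.89) in the pooled knockdown. Without sh-MIR100HG-2 replicate 1 these values were −0.60 and −0.31, and without its replicate 2 they were −0.15 and −0.08. Per kilobase of exon, the ratio of E2F7 to E2F8 was 5.60 and 3.84 in the controls, 6.84 and 12.8 with sh-MIR100HG-1 and 5.87 and 12.6 with sh-MIR100HG-2. Every knockdown library therefore had a ratio above both controls, by a narrow margin for sh-MIR100HG-2 replicate 1, and replicate 2 had the higher ratio with either shRNA. This was 1 of 5 ratios computed among the members, and in the other 4 (E2F1 to E2F2, TFDP1 to TFDP2, atypical to activator and DP to E2F1 to E2F6) the knockdown libraries overlapped the controls.

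The DP partners differed in how steady they were. TFDP1 (chr13:114239036-114295785), the main dimerization partner, was at 129 and 128 CPM in the controls, at 157 and 111 CPM with sh-MIR100HG-1 and at 152 and 89.4 CPM with sh-MIR100HG-2. In both knockdown groups replicate 1 lay above the controls and replicate 2 below them. Its pooled log2 fold change was −0.01 (SE 0.26, interval −0.60 to 0.57, adjusted p = 0.994).

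TFDP2 (chr3:141663270-141868386), the other partner read here, was at 39.3 and 38.9 CPM in the controls, at 44.4 and 44.5 CPM with sh-MIR100HG-1 and at 41.2 and 44.6 CPM with sh-MIR100HG-2. All knockdown libraries lay above both controls by a small margin. The log2 fold change of TFDP2 was 0.16 (SE 0.18, interval −0.25 to 0.57, edgeR adjusted p = 0.873), and the exact permutation p was 0.0667. The mean gap between the replicates of TFDP2 was at the 0.423 percentile of all genes tested, the smallest among the members. The gaps of E2F2 were at the other end, at the 93rd percentile (93.0). The annotation holds pseudogene copies of E2F3, E2F4, E2F6 and TFDP1, and how reads shared with them were counted was not given in the sources used here.

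**Figure D2:**
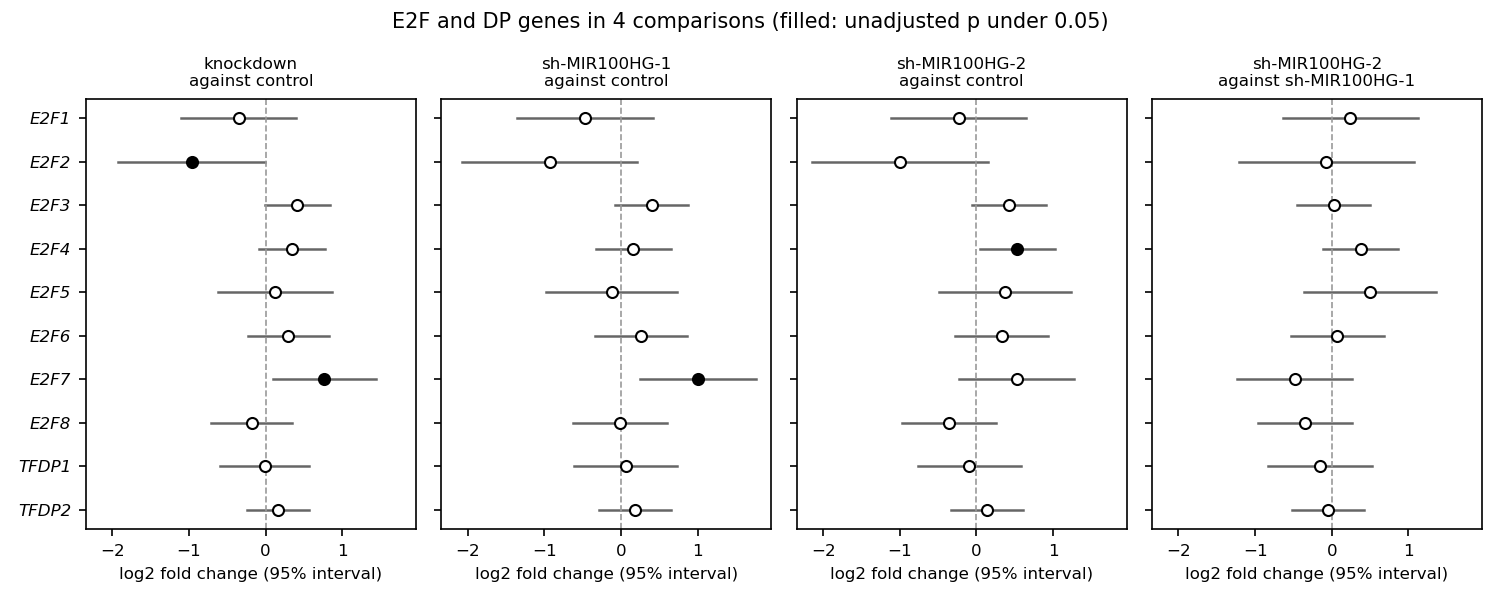
Log2 fold change (x axis) of the 10 E2F and DP genes with 95% intervals in 4 comparisons, with filled points for an unadjusted edgeR p under 0.05. E2F2 (−0.97) and E2F7 (0.77) are filled in the pooled knockdown, E2F7 (1.01) with sh-MIR100HG-1 and E2F4 (0.54) with sh-MIR100HG-2, and no point is filled between the shRNAs.

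Levels between genes were compared as CPM per kilobase of exon. The length was that of all exon bases listed for a gene, not of the transcripts expressed, so the order depends on the annotation. TFDP2, with 11897 bases, ranked below E2F6 and E2F8 in this measure. Its control mean of 39.1 CPM lay above theirs (17.6 and 15.95 CPM). In the controls the order was E2F1 (43.0), TFDP1 (34.3), E2F7 (18.2), E2F4 (17.4), E2F3 (10.1), E2F6 (4.33), E2F8 (3.85), TFDP2 (3.29), E2F2 (1.81) and E2F5 (1.38), where the median gene tested was at 4.05. Over the 6 libraries the ranges of neighbours did not overlap between E2F4 and E2F3, E2F3 and E2F6, E2F6 and E2F8, and TFDP2 and E2F2. The other neighbours overlapped: E2F1 with TFDP1, TFDP1 with E2F7, E2F7 with E2F4, E2F8 with TFDP2, and E2F2 with E2F5. E2F1 stood at the 93.5 percentile of genes tested in the controls and E2F5 at the 32.2 percentile. The highest library was 4.47 times the lowest for E2F2, 3.07 times for E2F7, 2.48 times for E2F1 and 1.15 times for TFDP2. In sh-MIR100HG-1 replicate 2 the level of E2F7 (44.9 CPM per kilobase) exceeded that of E2F1 (32.9 CPM per kilobase), which held in no control.

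**Figure D3:**
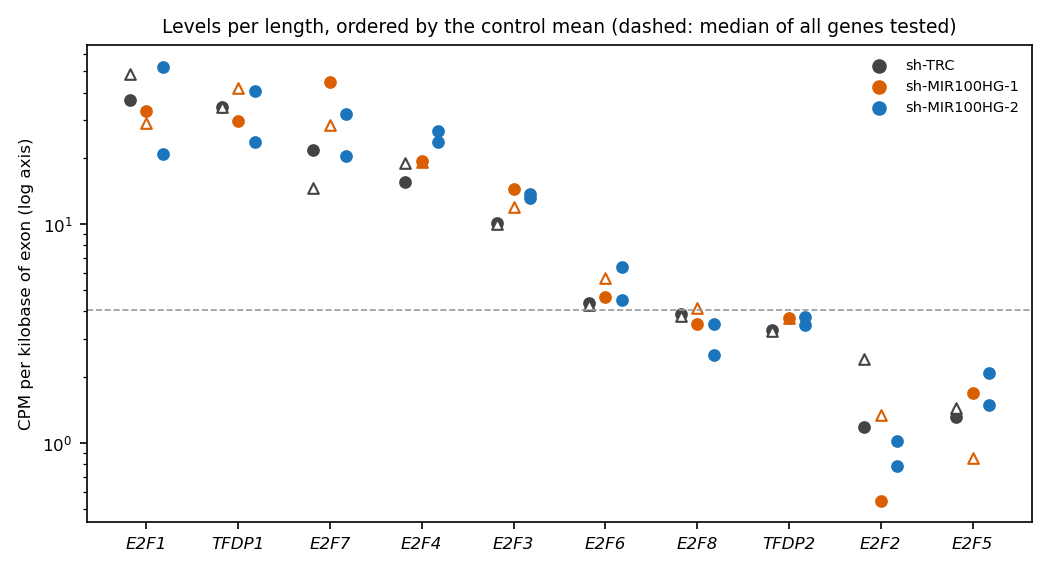
CPM per kilobase of exon (log axis) of each E2F and DP gene, ordered by the control mean, with 1 point for each of the 6 libraries and open triangles for sh-TRC replicate 2 and sh-MIR100HG-1 replicate 1. The dashed line is the median of all genes tested (4.05), and E2F1, TFDP1, E2F7, E2F4, E2F3 and E2F6 lie above it in every library.

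The shRNAs were also compared with each other directly. The differences of the members lay between −0.48 (E2F7) and 0.50 (E2F5) on the log2 scale, with a median of −0.01 beside −0.01 over all genes. E2F4 was higher with sh-MIR100HG-2 in both libraries (0.38, interval −0.11 to 0.86, edgeR adjusted p = 0.58) and E2F8 was lower in both (−0.35, interval −0.96 to 0.27, adjusted p = 0.662). Leaving out 1 library moved the difference to between −0.84 and −0.10 for E2F7 (without sh-MIR100HG-2 replicate 2 and without sh-MIR100HG-1 replicate 2), −0.60 and −0.14 for E2F8 (without sh-MIR100HG-2 replicate 1 and 2), and 0.08 and 1.08 for E2F5 (without sh-MIR100HG-1 replicate 1 and 2). The intervals were wide enough to hold a doubling or halving only for E2F1, E2F2, E2F5 and E2F7, and a missed threshold does not show that the shRNAs acted alike on the members.

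Upstream of the E2Fs, 16 of 18 listed pocket proteins, D cyclins, kinases, inhibitors and ubiquitin ligase subunits were tested, and none passed the adjusted threshold. At an unadjusted p under 0.05, 4 were higher and 1 lower in the pooled knockdown, against 7.68% of all genes (497 higher and 683 lower), and the median log2 fold change was 0.27 beside −0.04 over all genes. The edgeR adjusted p-values of these 5 ran from 0.381 to 0.559, and log2 fold changes are given in parentheses. RBL2, which encodes p130, the pocket protein that pairs with E2F4, was at 19.8 and 30.9 CPM in the controls and 11.4 to 18.5 CPM after knockdown (−0.79). SKP2 (1.28) and CCNF (0.79), which encode substrate receptors of ubiquitin ligases that act on cell cycle proteins, were higher. CDK6, which phosphorylates RB, was higher (1.13), and so was the inhibitor gene CDKN1B (0.87). Of the 16 tested genes of this list, DESeq2 and the likelihood ratio test each called 2 in the pooled knockdown, SKP2 and CDK6. Over all 15372 genes tested, these tests called 130 and 109. Between the shRNAs, RB1 (−0.63) and RBL1, encoding p107 (−0.80), were lower with sh-MIR100HG-2, while CCND3 (0.82) and CDKN1A (0.91) were higher, each with an edgeR adjusted p of 0.509. These 4 stood against 9.45% of all genes at an unadjusted p under 0.05. DESeq2 and the likelihood ratio test called 0 of the list there, beside 103 and 91 of all 15372 genes tested. RB1 was at 83.3 and 64.4 CPM in the controls, at 103 and 146 CPM with sh-MIR100HG-1 and at 86.1 and 75.7 CPM with sh-MIR100HG-2. Its lowest mean was thus in the controls and its highest with sh-MIR100HG-1, whereas E2F4 was highest with sh-MIR100HG-2.

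Of the complexes in which E2Fs work, 13 of 13 subunits were tested, 5 of the MuvB core that joins E2F4 or E2F5 in the DREAM complex and 8 of the E2F6 complex. None differed in the pooled knockdown at an unadjusted p under 0.05, against 7.68% of all genes, and their log2 fold changes ran from −0.24 to 0.35. DESeq2 and the likelihood ratio test also called 0 of them in every comparison, beside 130 and 109 of all 15372 genes tested in the pooled knockdown. LIN9 of the MuvB core was lower with sh-MIR100HG-2 than with sh-MIR100HG-1 (−0.96, edgeR adjusted p = 0.509). It was 1 of 13 subunits with an unadjusted p under 0.05 between the shRNAs, against 9.45% of all genes.

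Of 57 listed target genes of E2Fs, 55 were tested and 0 passed the adjusted threshold in the pooled knockdown (lowest adjusted p in the list 0.381, edgeR quasi-likelihood test). At an unadjusted p under 0.05, 7 were higher and 2 lower, against 7.68% of all genes, with a median log2 fold change of 0.11 beside −0.04 over all genes. The higher ones were CDC25A (1.57) and MYBL2 (0.78) of the G1/S regulators, CDC6 (0.61) and GMNN (0.59) of replication licensing, FEN1 of DNA synthesis (0.49), and APAF1 (0.50) and BBC3 (0.75) of apoptosis. CDC6 loads the replicative helicase, whereas GMNN encodes geminin, which blocks licensing through CDT1. GINS1 (−1.06) and GINS4 (−1.11), subunits of the replicative helicase complex, were lower. These 9 genes had edgeR adjusted p-values of 0.381 to 0.642, whereas DESeq2 and the likelihood ratio test each called 3 of the 55 targets, CDC25A, GINS4 and GINS1. Over all 15372 genes tested, these tests called 130 and 109 in the pooled knockdown. Between the shRNAs, POLE (−0.56), BRCA2 (−1.55) and EZH2 (−0.50) were lower with sh-MIR100HG-2, and BBC3 (0.82) and BCL2L11 (0.77) were higher (edgeR adjusted p 0.509 to 0.515), against 9.45% of all genes. DESeq2 and the likelihood ratio test each called 1 of the 55 targets between the shRNAs, BRCA2, beside 103 and 91 of all 15372 genes tested. Promoter windows with an E2F word made up 31.9% of the 69 windows of the target genes, beside 4.59% of the windows of all genes tested. These genes were listed because they are E2F targets, so a high share follows from the choice of the list.

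**Figure D4:**
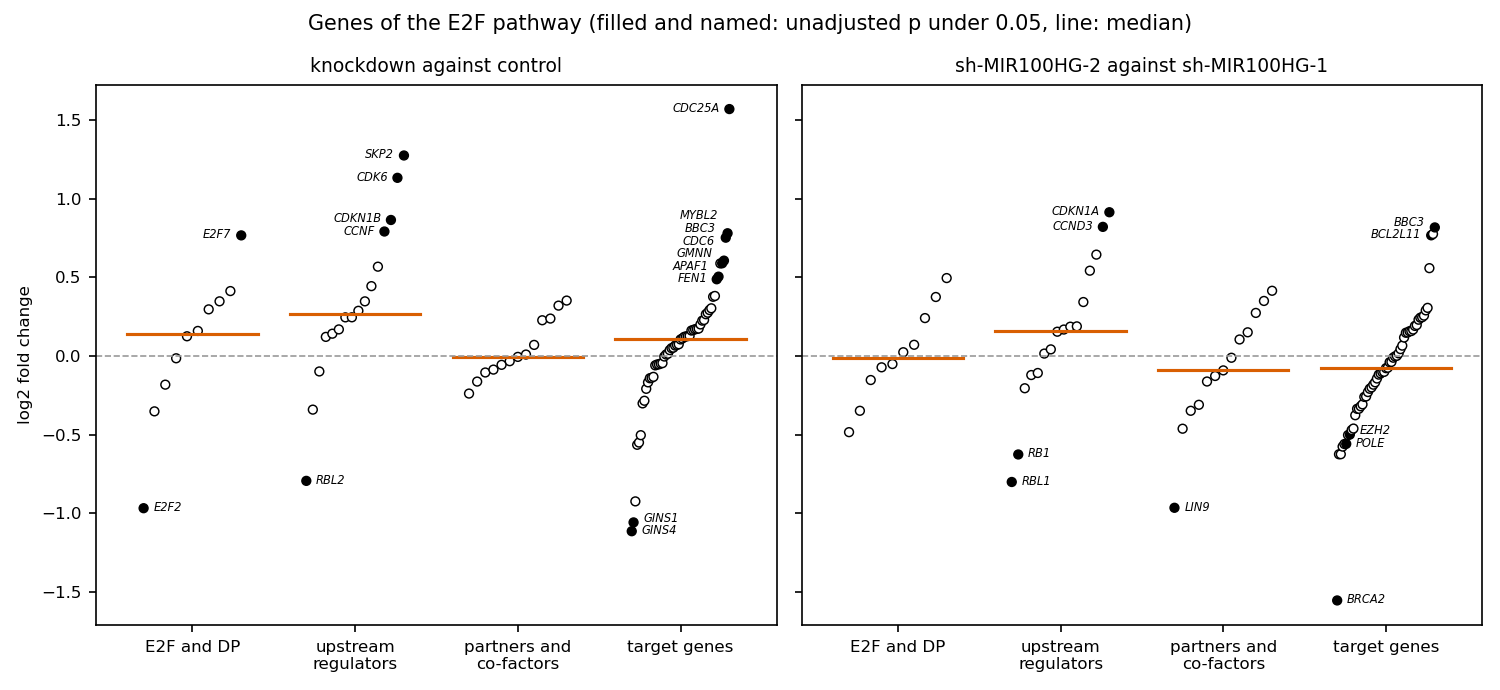
Log2 fold change (y axis) of the E2F and DP genes, of their upstream regulators, of partners and co-factors and of target genes, for the pooled knockdown (left) and between the shRNAs (right). Filled, named points had an unadjusted edgeR p under 0.05 and lines are medians, which in the pooled knockdown are 0.14, 0.27, −0.01 and 0.11.

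Across the 6 libraries, which share their groups and their scaling, the pathway genes most like each member that differed at the unadjusted threshold were named from the 84 tested, by Pearson's r of log2 CPM and as a description only. E2F7 was most like CDC6 (r = 0.995), CHAF1A (r = 0.918) and MCM10 (r = 0.918). CDC6 was at 79.9 and 63.0 CPM in the controls, at 101 and 147 CPM with sh-MIR100HG-1 and at 76.2 and 115 CPM with sh-MIR100HG-2. The libraries thus had the same order for CDC6 as for E2F7. E2F2 was most like CDKN2C (r = 0.972), MCM7 (r = 0.941) and TP73 (r = 0.913). CDKN2C and MCM7 were, like E2F2, highest in the pair of libraries that stood apart, with CDKN2C at 82.8 and 71.2 CPM there and 45.7 to 60.0 CPM elsewhere. E2F4 was most like CDKN1C (r = 0.954), GINS2 (r = 0.933) and MAX (r = 0.914), the last a subunit of the E2F6 complex. Among the members themselves E2F2 and E2F7 ran most strongly against each other (r = −0.894, n = 6), and E2F7 and TFDP2 were the most alike (r = 0.875, n = 6).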

How the data were processed

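RNA-seq libraries were mapped by the authors to GRCh37 with STAR (version 2.5.2a per the submitters' processing notes, another version in the study's methods) and assigned to GENCODE exons with featureCounts. The deposited values are raw counts per gene for each library. The strand setting was not given in the sources used here. Genes with at least 5 counts in at least 4 of 6 libraries were kept (15372 of 27745 genes, 12373 removed). Counts were scaled by TMM and fitted in edgeR 4.0.16 (R 4.3.3) with 1 model of 3 groups. The quasi-likelihood F test was used, since the methods name the quasi-likelihood method (beside edgeR's likelihood ratio function, an alternative here), with Benjamini-Hochberg adjustment over all genes tested and a threshold of 0.05. The common biological coefficient of variation was 27.8%, on 3 residual and 5.37 prior degrees of freedom. Pooled knockdown means the average of both shRNA groups against the control. CPM values are TMM-scaled counts per 1000000 counts, and log2 CPM used a pseudocount of 0.125 CPM. The scripts were tested on simulated data. Totals of 43804736 to 64588388 counts (median 51553219.5) were the depth, and counting error was not separated from the spread between libraries. DESeq2 1.42.0, the likelihood ratio test, RLE scaling, no filter, a replicate block, a pseudocount of 1 CPM and leaving out libraries were the alternatives. Leaving out 2 libraries together and crossing the control numbers were chosen after seeing the data. Named were all members and MIR100HG, pathway genes with an unadjusted p under 0.05 in the pooled knockdown or between the shRNAs, and the 3 pathway genes most like each member that differed. The genes used to describe the libraries that stood apart were named after their values were seen. The members and lists were chosen with earlier results of these data known.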

Additional observations from a re-analysis of the deposited data

How the results depend on the processing

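No member crossed the adjusted threshold under any alternative except E2F7 with sh-MIR100HG-1 when low counts were not filtered. At an unadjusted p under 0.05 in the pooled knockdown, E2F3 joined E2F2 and E2F7 with RLE scaling and in DESeq2. That made 3 members, against 7.64% and 8.72% of genes. It remained 2 members by the likelihood ratio test (8.52% of genes) and without the filter (9.05%). The number of genes called was 0 in all 4 comparisons by the quasi-likelihood test and by RLE scaling. In the order pooled knockdown, sh-MIR100HG-1, sh-MIR100HG-2 and between the shRNAs, it was 392, 227, 517 and 679 without the filter, 109, 34, 121 and 91 by the likelihood ratio test, and 130, 66, 167 and 103 by DESeq2. Leaving out 1 library, so that a lone sample was assumed to vary like the other groups, gave 0 to 1, 0 to 3, 0 to 5 and 0 to 10 genes, and leaving out sh-TRC replicate 2 and sh-MIR100HG-1 replicate 1 together, with 1 residual degree of freedom, gave 1, 0, 12 and 14. The members that did not overlap numbered 3 with RLE scaling (17.5% of genes), 4 to 7 when 1 library was left out (20.5 to 40% of genes) and 7 without both libraries (50.6%). The cause of these moves was not tested.

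With the replicate number as a block, 0 genes were called in every comparison, and 2, 1, 1 and 0 members had an unadjusted p under 0.05, against 10.3, 9.24, 11.9 and 13.1% of genes. Same-numbered libraries deviated together between the shRNAs (r = 0.497) and not with the controls (r = −0.213 and 0.0219), and the labels do not say what a number marks. Crossing the numbers of the controls left 0 genes called and gave 3, 2, 3 and 1 members at the unadjusted threshold, against 11, 10.8, 11.1 and 12.1% of genes.

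The direction turned for members near 0. TFDP1 in the pooled knockdown was 0.0036 with RLE scaling and 0.0035 in DESeq2, and E2F8 with sh-MIR100HG-1 was 0.00017 in DESeq2. When 1 library was left out, the pooled log2 fold change ran from −0.16 to 0.33 for E2F5 and −0.23 to 0.14 for TFDP1. With sh-MIR100HG-1 it ran from −0.70 to 0.29 for E2F5, −0.14 to 0.10 for E2F8 and −0.21 to 0.28 for TFDP1, and with sh-MIR100HG-2 from −1.04 to 0.28 for E2F1 and −0.52 to 0.23 for TFDP1. Between the shRNAs it ran from −0.56 to 0.75 for E2F1, −0.56 to 0.72 for E2F2, −0.11 to 0.18 for E2F3, −0.20 to 0.30 for E2F6, −0.585 to 0.18 for TFDP1, −0.11 to 0.0059 for TFDP2 and −0.45 to 0.22 for MIR100HG. Without both libraries that stood apart, E2F5 (0.35) and TFDP1 (−0.22) turned with sh-MIR100HG-1, and E2F2 (0.73), E2F3 (−0.11), TFDP1 (0.12) and MIR100HG (0.032) turned between the shRNAs, where E2F2 was 0.064 with the crossed numbers. With 2 libraries a group, differences of the size seen in most members could not be told from the spread between replicates.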

Other observations

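The level of replication and mitosis genes beside the E2Fs was taken from the S phase and G2/M lists of Seurat 5.3.0, with the members removed. The 42 S phase genes lay, on average over genes, 0.04 above and 0.04 below the control mean (log2) in the controls, 0.19 and 0.12 above it with sh-MIR100HG-1 and 0.05 and 0.16 below it with sh-MIR100HG-2. The 54 G2/M genes lay 0.08 and 0.21 above it with sh-MIR100HG-1, and in both sh-MIR100HG-2 libraries below it (−0.343 and −0.347), where the controls were at 0.12 and −0.12. Between the shRNAs, 20 of the 54 G2/M genes had an unadjusted p under 0.05 and were lower with sh-MIR100HG-2, and 0 were higher, against 9.45% of all genes (513 higher and 940 lower). The median log2 difference of the list was −0.42, beside −0.01 over all genes. Against the controls, 8 G2/M genes were lower and 2 higher with sh-MIR100HG-2 at the unadjusted threshold (8.86% of all genes). With sh-MIR100HG-1, 0 were lower and 4 higher (6.87% of all genes). CDKN1A was at 305 and 285 CPM with sh-MIR100HG-2, 127 and 186 CPM with sh-MIR100HG-1 and 157 and 195 CPM in the controls. Between the shRNAs, 0 of 10 members passed the unadjusted threshold, which is too few genes to set apart from the 9.45% of all genes.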
